A study of Mus musculus with 20 samples.

Results

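The comparison set the striatum of a mouse line selected for overactivity in the home cage against that of a control line, both after an injection of saline. It used the 5 saline libraries of each line, 10 of the 20 libraries of the study, and every locus of the deposited table with a gene symbol (26475 of 37051). All mice were males of about 6 months, 1 library stands for 1 mouse, and the labels give Collaborative Cross, a mouse population bred from several inbred founder strains, for both lines. The striatum was taken 2 hours after the injection, and RNA was sequenced with paired ends. The other 10 mice, 5 of each line, received d-amphetamine at 25 mg/kg in place of saline. They are separate animals, and their values are set beside the saline values below. There was 1 line of each kind, so differences that came with selection and those that 2 separately bred lines carry for other reasons cannot be told apart. The labels do not say whether mice of a line were littermates, and p-values measure the spread between these mice.

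The striatum is the main input nucleus of the basal ganglia and takes part in starting and scaling movement. Most of its neurons are GABAergic projection neurons, which carry the dopamine receptor Drd1a (direct pathway) or Drd2 (indirect pathway) and receive glutamate from cortex and thalamus and dopamine from the midbrain. A dissected striatum can also hold tissue of its borders, which are the cortex, the septum and thalamus, and the ependyma and choroid plexus of the lateral ventricle. In such bulk RNA, fewer cells of a type and less RNA per cell cannot be told apart.

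The saline libraries held 34124515 to 46493247 counts, and 17206 loci had enough counts to be tested. Levels are counts scaled to library size (CPM), differences are log2 values of the overactive over the control line with their standard error (SE), and a locus was called at a Benjamini-Hochberg adjusted p under 0.05 in edgeR's quasi-likelihood test. Libraries differed within each line in marker genes of neighbouring tissue. These sums are given where they move with a result.

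A small share of the loci tested was called between the lines. Of 17206 loci, 191 (1.11%) were called, 110 higher in the overactive line (0.639%) and 81 lower (0.471%). An unadjusted p under 0.05 was reached by 2978 loci (17.3%). Among the loci called, the median difference was 1.81-fold for those higher and 1.42-fold for those lower, and 62 differed by at least 2-fold (45 higher and 17 lower). The median log2 difference of all loci tested was -0.0003, with 49.93% above 0. The scaling between libraries takes most loci to be unchanged, so this centre is not a result about the lines. The 5 overactive libraries lay wholly outside the range of the 5 control libraries for 165 of the 191 loci, against 4.26% of all loci tested. Of 174 called loci that matched an annotated gene, 164 were protein coding.

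**Figure D1:**
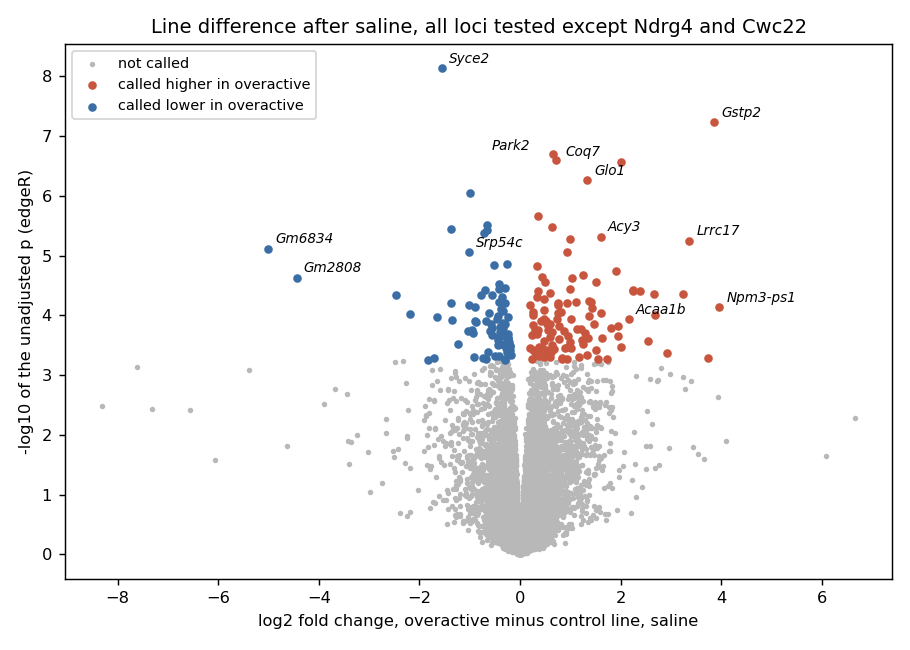
Each point is 1 locus tested in the saline comparison, with its log2 difference between the lines on the horizontal axis and -log10 of its unadjusted edgeR p on the vertical axis. Red points are the loci called higher and blue points those called lower in the overactive line, and Ndrg4 and Cwc22, which were listed at 0 in the overactive line, are left out. Gstp2 stands far to the right at 3.85, Syce2 has the smallest p of the loci drawn, and Park2 and Coq7 have small p at differences below 1.

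The enzymes that clear reactive carbonyls and electrophiles held 2 of the loci with the smallest p. Glo1 (chromosome 17, 30584936 to 30626871, minus strand, GRCm38) encodes glyoxalase, which turns the glycolytic by-product methylglyoxal, bound to glutathione, into a harmless product. Control libraries 1 to 5 measured 152, 105, 106, 97.3 and 209 CPM of Glo1, and overactive libraries 1 to 5 measured 376, 317, 310, 362 and 324 CPM. Every overactive library exceeded every control library, and within the control line libraries 1 and 5 were the highest. The log2 difference was 1.34 (SE 0.18, edgeR adjusted p = 0.00135).

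Gstp2 (chromosome 19, minus strand, locus 4040288 to 4042221) encodes a pi class glutathione S-transferase, an enzyme that joins glutathione to electrophiles. It was nearly silent in the control line, with 3, 3, 7, 4 and 6 counts in saline libraries 1 to 5. The overactive libraries held 94, 36, 86, 48 and 62 counts. In CPM this was 0.108 ± 0.0327 against 1.62 ± 0.595 (SD, n = 5), a log2 difference of 3.85 (SE 0.45, edgeR adjusted p = 0.000339). Its neighbour and close copy Gstp1 was much nearer in the 2 lines, at 42.3, 46.2, 54.3, 35.4 and 59.9 CPM in control and 60.6, 52.7, 52.8, 59 and 60.9 CPM in overactive libraries (log2 0.26, SE 0.13, edgeR adjusted p = 0.315). Reads of the 2 copies could have been split between them in counting, and the summed counts gave a log2 difference of 0.30 (SE 0.13, edgeR adjusted p = 0.248). Gstp1 makes up nearly all of that sum, so it cannot show whether the Gstp2 difference came from such splitting.

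The 250 bases before the start of each gene are shown because the copies differ in their response to line while these windows are much alike (RefSeq, GRCm38.p6, minus strand, 5′ to 3′, Gstp1 at chr19:4037913-4038162 and Gstp2 at chr19:4042222-4042471). Capitals mark TGAGTCA, a match to the motif TGACTCA or its reverse complement TGAGTCA, the site known for AP-1 factors.
Gstp1: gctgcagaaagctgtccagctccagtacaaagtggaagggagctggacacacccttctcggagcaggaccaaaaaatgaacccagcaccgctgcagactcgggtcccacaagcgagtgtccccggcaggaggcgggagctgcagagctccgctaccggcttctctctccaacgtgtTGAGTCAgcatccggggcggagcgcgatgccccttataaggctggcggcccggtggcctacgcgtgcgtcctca
Gstp2: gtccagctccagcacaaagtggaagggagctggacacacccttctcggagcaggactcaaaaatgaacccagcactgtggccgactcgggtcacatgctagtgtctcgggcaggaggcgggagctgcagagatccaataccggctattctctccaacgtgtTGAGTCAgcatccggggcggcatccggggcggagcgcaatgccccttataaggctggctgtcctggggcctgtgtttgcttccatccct
The windows were identical at 208 of 265 aligned positions (78.5%), gaps included. The motif, searched on both strands, lay with its first base 74 bases before the start in Gstp1 and 89 bases before it in Gstp2, and 4.46% of 32851 RefSeq windows of this length hold it. These are reference letters, not the letters of the lines studied.

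The other enzymes of glyoxal and glutathione handling were not called. Of 31 loci tested from that list, 2 were called higher (Glo1 and Gstp2) and 0 lower, with a median log2 of 0.11 and 21 values above 0. Over all loci tested 0.639% were called higher, 0.471% were called lower and 49.93% were above 0. Gclc and Gclm, which make the glutathione precursor, stood at 0.04 and 0.11, and the second glyoxalase, Hagh, had values of -0.03 and 0.18 at its 2 loci. The microsomal transferase Mgst1 had a log2 of 0.61 (edgeR adjusted p = 0.11).

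Park2, Coq7 and Adck1, whose products act in or on mitochondria, were called higher in the overactive line. Park2 (chromosome 17, 10840384 to 12063361, plus strand), which encodes parkin, a ubiquitin ligase acting on damaged mitochondria, measured 9.03, 8.92, 10.4, 9.45 and 10.1 CPM in the control libraries. The overactive libraries measured 17.5, 13, 15.2, 14.5 and 15 CPM, each above all control libraries (log2 0.65, SE 0.08, edgeR adjusted p = 0.000785). Coq7 (chromosome 7, 118509659 to 118533356, minus strand) encodes a hydroxylase of coenzyme Q synthesis. It measured 12.1, 13.5, 14.3, 13.6 and 13.6 CPM in control and 22.5, 21.5, 22.6, 25.5 and 18.1 CPM in overactive libraries, again without overlap (log2 0.72, SE 0.09, edgeR adjusted p = 0.000785). Adck1, a kinase-like protein of mitochondria, differed by less but with a narrow spread, at 22 ± 1.4 against 28.2 ± 1.15 CPM (SD, n = 5, log2 0.36, SE 0.05, edgeR adjusted p = 0.00416).

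Coq7 was the 1 gene of its route called. Of 13 loci tested for coenzyme Q synthesis, 1 was called higher and 0 lower, with a median log2 of 0.02. The other 12 were not called, and their values ran from -0.32 for Pdss1 to 0.12 for Pdss2, both subunits of the enzyme that makes the side chain. Among 68 loci of oxidative phosphorylation subunits edgeR called 0, against 1.11% of all loci tested. Of these 68, 2 had an unadjusted p under 0.05, against 17.3% of all loci, and the median was -0.01.

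Wdr11, Unc93b1, Mrc2, Ezr, Cetn4, Tmem44 and Mfsd7b, of different known roles, were called higher too. Wdr11 (chromosome 7, 129591863 to 129635738, plus strand), a protein of the trans-Golgi network, had a narrow range in the control line at 51.1, 51.3, 49.6, 53.8 and 51.9 CPM. In the overactive line it measured 95.9, 74.2, 65.2, 71.4 and 96 CPM, with libraries 1 and 5 highest (log2 0.64, SE 0.10, edgeR adjusted p = 0.00497). The endosomal gene Unc93b1, a chaperone of nucleic acid-sensing Toll-like receptors, measured 10.7, 8.25, 12.1, 7.17 and 14.4 CPM in control and 24.5, 18.1, 26.7, 18 and 20.4 CPM in overactive libraries (log2 1.03, SE 0.19, edgeR adjusted p = 0.0144). Mrc2, an endocytic collagen receptor, measured 4.99 ± 1.31 and 12 ± 2.82 CPM (SD, n = 5, log2 1.26, SE 0.23, edgeR adjusted p = 0.0144), and Ezr, the membrane linker ezrin, 65.9 ± 5.07 and 89.7 ± 7.5 CPM (log2 0.44). Cetn4, a centrin of ciliary basal bodies, was at 5.26 ± 0.352 and 10.4 ± 2.18 CPM (log2 0.99, SE 0.16, edgeR adjusted p = 0.0057). With a score of the ependymal markers described below in the model, Cetn4 had a log2 of 0.80 and was not called (edgeR adjusted p = 0.126). Unc93b1, Mrc2, Ezr, Tmem44 and Mfsd7b were not called in that model either (edgeR adjusted p from 0.0794 to 0.251), while Wdr11 was. Their log2 values with the score were 0.69 for Unc93b1, 1.10 for Mrc2, 0.35 for Ezr, 0.97 for Tmem44 and 0.48 for Mfsd7b. That model left 23 calls over all loci, and why calls were lost in it was not tested. Without the score, Tmem44 had a log2 difference of 0.94 and Mfsd7b, now Flvcr1, a choline and heme transporter, one of 0.50. In each of these 7 genes all overactive libraries lay above all control libraries.

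Larger folds were found at genes of low level. Acy3, an aminoacylase that acts on products of glutathione conjugation, measured 1.19, 1.24, 1.13, 1.14 and 1.28 CPM in control and 5.22, 2.12, 4.27, 2.95 and 3.61 CPM in overactive libraries (log2 1.60, SE 0.26, edgeR adjusted p = 0.0055). Rad21l, a cohesin subunit of meiosis, had a log2 difference of 1.90, Stc2, a secreted stanniocalcin, 1.51, and Hoga1, an aldolase of hydroxyproline breakdown, 2.25. The lipid receptor gene Gpr55 measured 2.28, 2.48, 1.6, 5.65 and 1.28 CPM in control and 8.73, 13.9, 11.2, 7.25 and 10.1 CPM in overactive libraries (log2 1.94, SE 0.41, edgeR adjusted p = 0.0268). The Gpr55 call was lost without control library 1, 2, 3 or 5 or overactive library 3 (largest edgeR adjusted p = 0.0731). Ccdc121 (log2 2.93) rested on 0.259 ± 0.26 CPM in the control line and was called in 2 of the 10 fits that each left out 1 library.

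**Figure D2:**
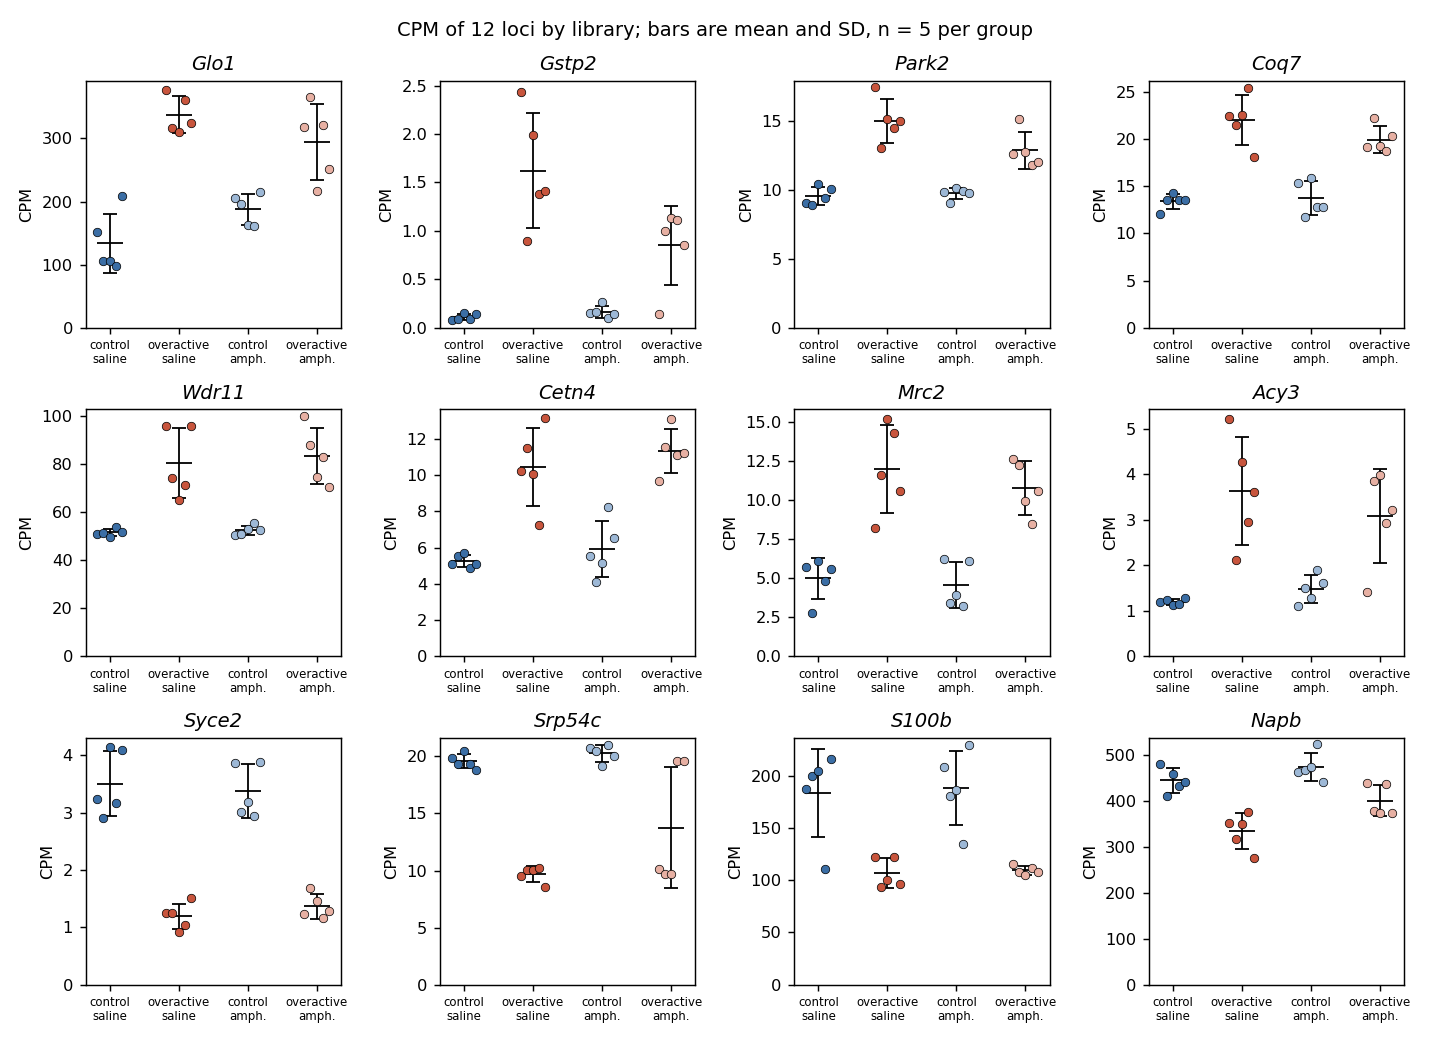
Each panel shows 1 locus, with CPM on the vertical axis from 0 and the 4 groups on the horizontal axis (amph., amphetamine), where points are libraries in order of replicate number and bars are the mean and SD of 5 libraries. The saline groups do not overlap in 11 of the 12 panels, the exception being S100b, where control library 4 at 111 CPM lies within the overactive range.

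Among genes lower in the overactive line, Syce2 (chromosome 8, 84872111 to 84888221, plus strand) had the smallest p of those above 0 in both lines. It encodes a component of the synaptonemal complex, which pairs chromosomes in meiosis. Control libraries measured 3.23, 2.9, 4.14, 3.17 and 4.09 CPM and overactive libraries 1.24, 1.24, 0.924, 1.03 and 1.51 CPM, without overlap (log2 -1.56, SE 0.16, edgeR adjusted p = 6.33e-05). Gcdh, a dehydrogenase of lysine breakdown chosen after its values were seen, has the same locus span as Syce2 in the table, and reads of the 2 may not be separable. It had a log2 of -0.30 at one of its loci and -0.21 at the other, the latter without overlap, and neither was called (edgeR adjusted p = 0.24 and 0.155). Among other nearby genes, chosen in the same way, Farsa had 0.24 and Wdr83 0.47, neither called (edgeR adjusted p = 0.132 and 0.0603). Between the lines under amphetamine, Wdr83 had 0.69 and was called (edgeR adjusted p = 0.0135), while Farsa had 0.15 and was not (0.444). For Wdr83 the lines overlapped neither after saline nor under amphetamine. After saline, Zfp791, a zinc finger gene, was called lower at -0.56 (SE 0.12, edgeR adjusted p = 0.0306), in the full fit and in 3 of the 10 fits without 1 library.

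Napb, Camk1d, Pikfyve and Gmpr, of different known roles, were also lower. Napb (chromosome 2, 148693985 to 148732467, minus strand) encodes beta-SNAP, a neuronal adaptor that helps take SNARE complexes apart after fusion. It measured 481, 411, 460, 432 and 440 CPM in control and 353, 316, 350, 376 and 275 CPM in overactive libraries (log2 -0.41, SE 0.08, edgeR adjusted p = 0.0163). Camk1d, a calcium and calmodulin-dependent kinase, measured 206 ± 12.4 and 155 ± 12.2 CPM (SD, n = 5, log2 -0.41, SE 0.08, edgeR adjusted p = 0.0174). Pikfyve, a phosphoinositide kinase of endosomes, had a log2 of -0.35, and Gmpr, which returns guanosine to inosine nucleotides, one of -0.30. Groups did not overlap in any of the 4. Camk1d missed the threshold without overactive library 4 (edgeR adjusted p = 0.0525), and Pikfyve without control library 5 (0.0533) or overactive library 4 (0.0559).

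S100b, a calcium-binding protein made chiefly by astrocytes, was lower while most of its list was above 0. It measured 188, 200, 205, 111 and 216 CPM in control and 122, 93.6, 100, 122 and 96.7 CPM in overactive libraries (log2 -0.78, SE 0.15, edgeR adjusted p = 0.0174). Control library 4 lay among the overactive values, and the call was lost without control library 5 (edgeR adjusted p = 0.0502). Of 18 astrocyte loci tested, S100b was called lower and 0 were called higher, while 16 had values above 0 (median log2 0.17). The summed level of the list was 4093 to 4280 CPM in control and 4249 to 4992 CPM in overactive libraries. Glul, glutamine synthetase, had a log2 of 0.26 and the gap junction gene Gja1 one of 0.27 (edgeR adjusted p = 0.0879 and 0.0793).

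Other named genes lower in the overactive line differed by modest amounts. The membrane protein gene Mansc1 measured 11.7, 10.9, 11.7, 10.8 and 14.2 CPM in control and 8.55, 6.07, 7.71, 8.83 and 6.62 CPM in overactive libraries (log2 -0.65, SE 0.10, edgeR adjusted p = 0.00497). The RNA helicase genes Dhx35 and Ddx47 had log2 differences of -0.71 and -0.31, the latter not called without control library 5 (edgeR adjusted p = 0.0563). Pdxdc1, with a pyridoxal phosphate-dependent domain, had one of -0.55, Ccdc59 one of -0.53, and Slc35b4, a nucleotide sugar transporter, one of -0.25. The muscle calpain gene Capn3 measured 5.64 ± 1.13 and 2.16 ± 1.1 CPM (SD, n = 5, log2 -1.38), and missed the threshold without control library 5 or overactive library 4 (edgeR adjusted p = 0.0563 and 0.0525). None of these genes overlapped between the lines.

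Some calls sat at genes with near-identical copies, where the way reads were shared out can move the value. Eno1, the ubiquitous enolase of glycolysis, measured 327, 301, 329, 239 and 260 CPM in control and 510, 448, 384, 411 and 384 CPM in overactive libraries (log2 0.55, SE 0.12, edgeR adjusted p = 0.0283). The call held in 5 of the 10 fits without 1 library (largest edgeR adjusted p = 0.0806). Gm5506, a copy of it elsewhere in the genome, ran the other way, at 94, 144, 166, 177 and 197 CPM in control and 7.31, 6.64, 51, 52 and 48.6 CPM in overactive libraries (log2 -2.23, SE 0.68, edgeR adjusted p = 0.101). The sum of both differed by a log2 of 0.04 (SE 0.06, edgeR adjusted p = 0.732), so that the Eno1 call ended when the copies were counted together. Of 20 glycolysis loci tested, Eno1 was the 1 called, and the median log2 was -0.06.

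**Figure D3:**
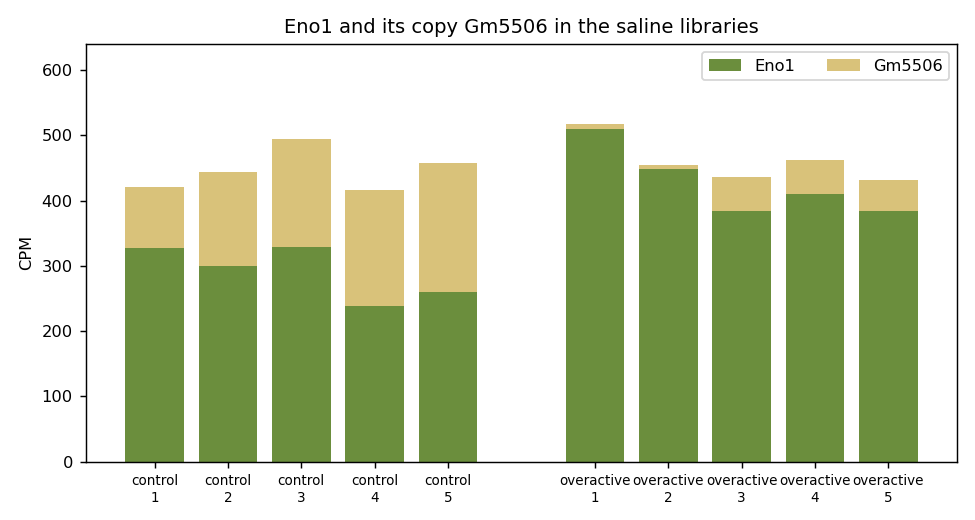
Stacked bars give the CPM of Eno1 (green) and of its copy Gm5506 (yellow) in each of the 10 saline libraries. The green part is taller and the yellow part shorter in the overactive libraries, and the whole bars run from 415.9 to 494.2 CPM in control and from 432.2 to 517.3 CPM in overactive libraries.

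Srp54c kept its direction when summed with its copies. This gene (chromosome 12, 55230168 to 55263836, plus strand) is 1 of 3 for the signal recognition particle subunit that binds signal sequences of new proteins. It measured 19.9, 19.3, 20.5, 19.3 and 18.8 CPM in control and 9.53, 10, 10, 10.2 and 8.52 CPM in overactive libraries with little spread in either line (log2 -1.02, SE 0.17, edgeR adjusted p = 0.00749). Srp54a and Srp54b had values of -0.50 and -0.09 and were not called, and all 3 together differed by -0.71 (SE 0.16, edgeR adjusted p = 0.0347). The other 7 loci of the particle and its receptor ran from -0.09 to 0.25, and 0 were called.

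The thiolase genes of peroxisomes moved in opposite directions. Acaa1b measured 0.42 ± 0.219 CPM in control and 1.88 ± 1.4 CPM in overactive libraries (SD, n = 5, log2 2.16, SE 0.45, edgeR adjusted p = 0.0241). The call was lost without control library 2 or 5 or overactive library 1 or 5 (largest edgeR adjusted p = 0.0682). Acaa1a, its more abundant relative on the same chromosome, measured 36.1, 38.3, 49, 56.6 and 58 CPM in control and 17.1, 23.4, 22.8, 39.2 and 22.1 CPM in overactive libraries (log2 -0.94, SE 0.20, edgeR adjusted p = 0.0294). Overactive library 4 lay above control libraries 1 and 2, and the call held in 3 of the 10 fits without 1 library (largest edgeR adjusted p = 0.0813). Counted together they differed by -0.84 (SE 0.19, edgeR adjusted p = 0.0317), the sign of Acaa1a. Acaa1a makes up most of that sum, so it does not test the Acaa1b difference. Acaa1a shares its locus span with Myd88, the Toll-like receptor adaptor, on the other strand (log2 -0.68, SE 0.14, edgeR adjusted p = 0.0246), which was called in 6 of those 10 fits. The table does not say whether strand was used, so reads of these 2 genes may not be separable.

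Ndrg4 and Cwc22 were listed at 0 in all 10 overactive libraries. Ndrg4, a gene of neurons, held 86485, 85677, 102128, 89976 and 89347 counts in control saline libraries 1 to 5. Cwc22, a splicing factor gene, held 51705, 51862, 1364, 130451 and 65049 counts in the same libraries, with library 3 far below the others. No fold is given for either. Mbp and Slc1a2, which are abundant in any striatum, were listed at 0 in all 20 libraries, so a listed 0 can be a failed count in this table. Whether the Ndrg4 and Cwc22 zeros are of that kind was not tested.

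Genes that define the striatum and its dopamine input were not called. Of 13 loci of dopamine synthesis, transport and reception edgeR called 0. At the 1.11% called over all loci, a list this short would most often hold 0 calls. The median log2 was 0.14, with 2 at an unadjusted p under 0.05, a level that 17.3% of all loci tested reached. Drd1a measured 246, 303, 241, 235 and 257 CPM in control and 179, 292, 260, 180 and 278 CPM in overactive libraries (log2 -0.11, SE 0.13, edgeR adjusted p = 0.72). Overactive libraries 1 and 4 lay below all control libraries and the other 3 within their range, and these 2 libraries were also the highest for thalamic markers and the lowest for shared projection neuron markers. Drd2 had a log2 of -0.01 (SE 0.12), and the peptide precursor genes Pdyn, Penk and Tac1 had values of 0.09 (SE 0.15), 0.08 (SE 0.13) and 0.14 (SE 0.12). Slc18a2, the vesicular monoamine transporter, stood at 9.8 ± 1.05 and 11.9 ± 1.06 CPM (SD, n = 5, log2 0.28, SE 0.11, edgeR adjusted p = 0.217). Th, the rate-limiting enzyme of dopamine synthesis, had -0.16 (SE 0.25), and Slc6a3, the dopamine transporter, 0.70 (SE 0.44) at under 1 CPM in every saline library. The receptor gene Drd5 had 0.71 (SE 0.18, edgeR adjusted p = 0.0603).

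Markers of projection neurons gave no calls either, as lists this short would most often do at the 1.11% called over all loci. Of 21 loci shared by both pathways edgeR called 0 (median log2 -0.05, 1 at an unadjusted p under 0.05). The same held for 7 direct (0.06, 1) and 7 indirect pathway loci (0.08, 0) and 13 interneuron loci (0.06, 2). Receptor genes gave 0 calls among 22 loci for AMPA, kainate and NMDA subunits, 7 for metabotropic glutamate receptors and 17 for GABA receptors. Of 15 serotonin receptor loci, Htr5a alone was called, lower at 14.5 ± 1.46 against 19 ± 1.84 CPM (SD, n = 5, log2 -0.39, SE 0.08, edgeR adjusted p = 0.0288). That call held in 5 of the 10 fits without 1 library.

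Presynaptic and channel genes were mostly below 0, with 1 of them called. Of 22 SNARE and vesicle fusion loci, Napb was called and 20 values were below 0 (median log2 -0.12). Their summed level was 11381 to 12893 CPM in control and 10339 to 11073 CPM in overactive libraries, without overlap. Snap25, a membrane SNARE, had -0.28 (SE 0.08) and Stx1a, syntaxin, -0.86 (SE 0.24), with edgeR adjusted p of 0.0798 and 0.0786. Of 42 potassium channel loci 0 were called and 34 were below 0 (median -0.10). An unadjusted p under 0.05 was reached by 16 of these 42, against 17.3% of all loci tested. Of 11 endocannabinoid loci 0 were called, 2 had an unadjusted p under 0.05, and 11 were below 0 (median -0.16). With a cortical marker score in the model these 3 medians were -0.02, -0.04 and 0.01.

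Activity and stress genes gave 1 call between the saline groups. Of 32 loci of immediate early genes edgeR called 0 (median log2 0.02, 3 at an unadjusted p under 0.05). Fos measured 15.1, 12.2, 7.08, 9 and 8.36 CPM in control and 13.5, 9.13, 32.5, 11.9 and 8.27 CPM in overactive libraries, where library 3 alone stood above the control range (log2 0.54, SE 0.41, edgeR adjusted p = 0.533). Arc, an effector of active synapses, was high in the same library at 286 CPM (log2 0.45, SE 0.46, edgeR adjusted p = 0.651). Of 20 glucocorticoid-responsive loci, Cdkn1a, the cell cycle inhibitor, was called higher. It measured 10.1, 8.64, 8.73, 5.79 and 7.56 CPM in control and 15.3, 12.6, 27.1, 13.3 and 20.8 CPM in overactive libraries (log2 1.13, SE 0.24, edgeR adjusted p = 0.0283), and the call held in 4 of the 10 fits without 1 library. Library 3 was also the highest overactive library for Cdkn1a. Lists for the circadian clock, heat shock, cholesterol synthesis, cytoplasmic ribosomal proteins, antigen presentation, complement and clade B serpins had 0 calls each. The share called over all loci was 1.11%.

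Marker lists of 3 cell types from the borders of the striatum had medians far from 0. Of 18 loci of cortical and hippocampal excitatory neurons, 16 were lower in the overactive line (median log2 -1.03). Slc17a7, the vesicular glutamate transporter of cortical neurons, measured 595, 211, 294, 193 and 522 CPM in control and 189, 98.1, 78.5, 90.5 and 227 CPM in overactive libraries (log2 -1.41, SE 0.41, edgeR adjusted p = 0.0877). Control libraries 1 and 5 were far above the rest. The sum over the list was 1029 to 2020 CPM in control and 726.2 to 1125 CPM in overactive libraries. The 1 call in the list was higher, not lower: the homeobox gene Cux1, also made outside the cortex, stood at 95 ± 6.12 and 113 ± 5.48 CPM (SD, n = 5, log2 0.25, SE 0.05, edgeR adjusted p = 0.023), and lost its call without control library 3 or 5 or overactive library 3 (largest edgeR adjusted p = 0.0671).

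Slc30a3, the zinc transporter of glutamatergic vesicles, moved with these markers. It measured 33.6, 20, 18.6, 22.1 and 28.3 CPM in control and 12.4, 4.35, 2.75, 7.54 and 10.4 CPM in overactive libraries (log2 -1.71, SE 0.41, edgeR adjusted p = 0.0486). The call held in 1 of the 10 fits without 1 library, and with a cortical marker score in the model the difference was -0.77 (edgeR adjusted p = 0.351). The same score left 19 calls (14 higher, 5 lower) over all loci, 18 of them among the 191. These included Syce2, Gstp2, Glo1, Wdr11, Park2, Coq7, Tmem44, Adck1 and Acaa1b. All 191 loci kept their direction, with a median absolute log2 of 0.60 against 0.67 without the score. The part of cortical tissue in the remaining 173 calls was not tested further.

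Ependymal cells, which line the ventricle and bear motile cilia, had higher markers in the overactive line. Of 13 loci tested 11 were above 0 (median log2 1.11), and the sum was 41.16 to 62.51 CPM in control and 54.04 to 92.25 CPM in overactive libraries. Ccdc153, a gene of motile cilia, was called, at 1.99, 1.6, 3.67, 1.9 and 2.4 CPM in control and 7, 4.83, 8.2, 10.1 and 8.15 CPM in overactive libraries (log2 1.72, SE 0.42, edgeR adjusted p = 0.0496). That call held in 1 of the 10 fits without 1 library. Foxj1, the master regulator of motile cilia, had 1.01 (SE 0.29) and Hydin, of the ciliary central pair, 1.34 (SE 0.34), with edgeR adjusted p of 0.0817 and 0.0611. Overactive library 2 was the lowest of its line in the list.

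Dnahc3, Dnahc5 and Dnahc8, dynein heavy chains of cilia outside that list, were called as well. They were picked for their calls after their values were seen, and the dynein loci not called were not counted. Over all loci 1.11% were called. Dnahc3 measured 2.81, 2.9, 3.65, 4.02 and 2.95 CPM in control and 8.16, 8.53, 11.2, 11.9 and 10.4 CPM in overactive libraries (log2 1.62, SE 0.33, edgeR adjusted p = 0.0222). Dnahc5 had 0.93 and Dnahc8, whose gene adjoins Glo1, 1.41. Without 1 library at a time Dnahc3 was called in 6 of 10 fits, Dnahc5 in 1 and Dnahc8 in 9. With an ependymal marker score in the model Dnahc3 had a log2 of 0.69, Dnahc5 0.45 and Dnahc8 1.34, none of them called. Ccdc153 had 0.33 in that model and was not called. It is itself a member of the score, so its fall was partly fixed in advance. That model, added after the data were seen, left 23 calls, 13 of them among the 191. Ndrg4, Syce2, Adck1, Glo1, Gstp2, Wdr11, Park2, Coq7 and Gmpr were among those 13.

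Markers of thalamic, septal and hypothalamic neurons were higher in some overactive libraries. Of 20 loci tested 0 were called, 4 had an unadjusted p under 0.05, and 18 were above 0 (median log2 0.85), with sums of 158.2 to 364.3 CPM in control and 274.4 to 664.3 CPM in overactive libraries. The vesicular glutamate transporter of thalamic neurons, Slc17a6, measured 99.4, 14.4, 37.6, 71.2 and 12.7 CPM in the overactive libraries, so that libraries 1 and 4 stood apart. Without these 2 libraries 66 loci were called, 47 of them among the 191. Choroid plexus sums ran from 14.83 to 773.3 CPM in control and from 22.12 to 893 CPM in overactive libraries, and 0 of its 13 loci were called. Myelin, oligodendrocyte precursor, microglia, endothelial, meningeal and blood lists had 0 calls each, where 1.11% of all loci were called.

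**Figure D4:**
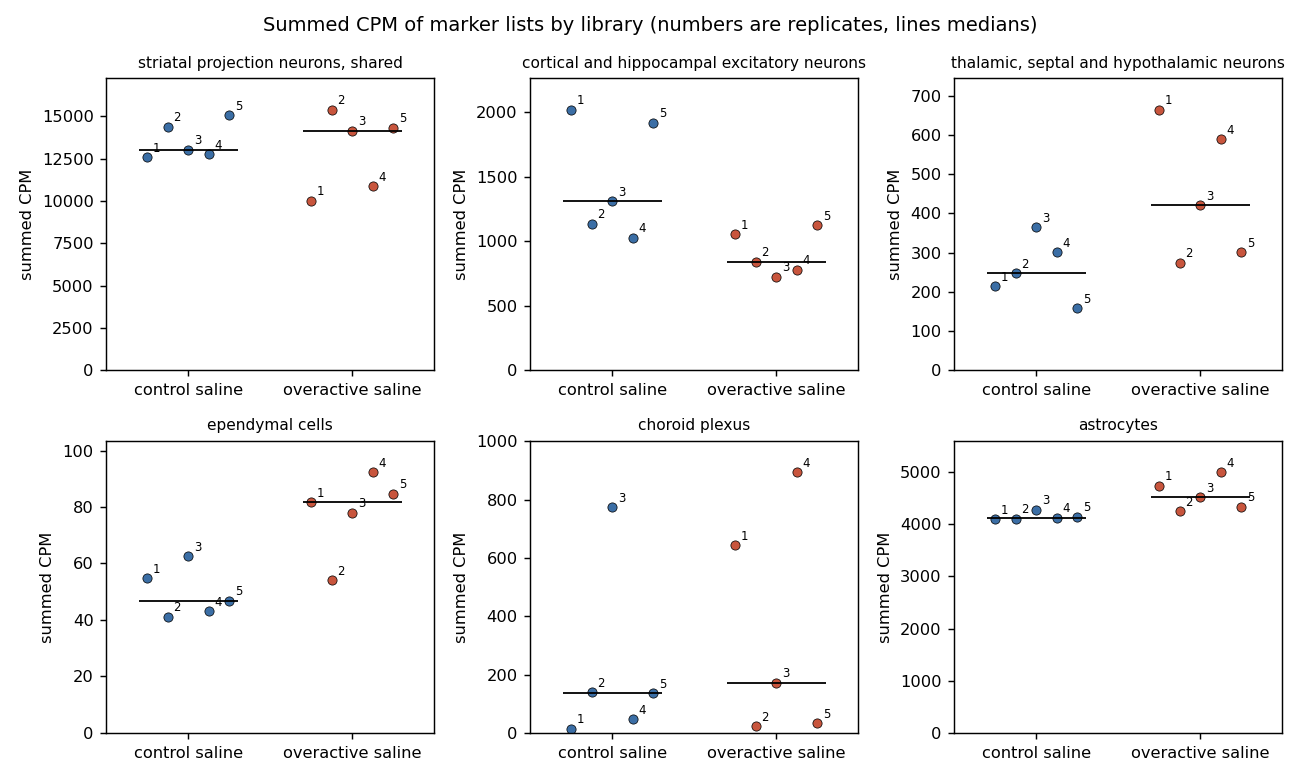
Each panel gives the summed CPM of 1 marker list on the vertical axis from 0 for the 10 saline libraries, with replicate numbers beside the points and group medians as lines. Control libraries 1 and 5 are highest for cortical markers, overactive libraries 1 and 4 are highest for thalamic markers and lowest for shared projection neuron markers, and 4 of 5 overactive libraries exceed all control libraries for ependymal markers.

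The loci called were unevenly spread over the genome. Chromosome 6 held 20 calls among 862 loci (2.32%), chromosome 19 held 12 among 585 (2.05%) and chromosome 17 held 17 among 834 (2.04%), against 1.11% of all loci. The X chromosome held 1 among 606 (0.165%). In windows of 5 Mb, 6 held 4 or more calls. The richest by share lay on chromosome 17 from 5 to 10 Mb, where Snx9, Gm2808, Ezr, E430024P14Rik and 1700010I14Rik were 5 of 36 loci. On the same chromosome 7 of 128 loci were called from 25 to 30 Mb, Cdkn1a, Ppil1, Mtch1 and Rnf8 among them. Counts in a window are a description, since neighbouring loci can share reads and sequence.

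At the start of chromosome 19 all 4 calls within 5 Mb were higher, and 1 mouse of the amphetamine group differed from its line at each of them. These were Unc93b1, Acy3, Gstp2 and Gm17552, 4 of 58 loci tested. In overactive amphetamine libraries 1 to 5 Unc93b1 measured 10.3, 17.6, 21.8, 18.1 and 16.6 CPM, and Acy3 measured 1.41, 3.85, 3.99, 2.94 and 3.22 CPM. Gstp2 measured 0.143, 1, 1.13, 1.11 and 0.857 CPM, and Gm17552 measured 2.35, 5.16, 6.36, 4.45 and 5.2 CPM. Library 1 was the lowest at all 4 and lay within the range of the control amphetamine libraries at each. No saline mouse of the overactive line stood at the control level for any of the 4. This pattern was chosen after its values were seen.

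A comparable sharing of levels appeared beside Glo1 on chromosome 17. Within 2 Mb (30 to 32 Mb) Btbd9, Glo1 and Dnahc8 were called higher, 3 of 23 loci. Btbd9, a gene linked to restless legs syndrome in people, measured 86, 70.4, 67.7, 63.8 and 87.3 CPM in control and 101, 91.8, 92.3, 97.5 and 105 CPM in overactive libraries (log2 0.38, SE 0.09, edgeR adjusted p = 0.0476). That call held in 2 of the 10 fits without 1 library (largest edgeR adjusted p = 0.0923), and under amphetamine Btbd9 was not called (log2 0.16, edgeR adjusted p = 0.478). Control libraries 1 and 5, the highest for Glo1, were also the highest for Btbd9. The nearby transcript Gm10503, chosen after its values were seen, measured 10.8, 0.0282, 0.0854, 0.0447 and 20.6 CPM in the control libraries and 33.3, 36.2, 38.2, 34.6 and 37.7 CPM in the overactive libraries. It thus had 3 levels, near 0 in control libraries 2, 3 and 4, between in 1 and 5, and highest throughout the overactive line, and edgeR did not call it (adjusted p = 0.254). Glp1r, the receptor of an incretin peptide, narrowly missed the threshold (log2 1.08, SE 0.26, edgeR adjusted p = 0.051). Control libraries 1 and 5 were also the highest for cortical markers, and Glo1 had a log2 of 1.57 (edgeR adjusted p = 0.00519) with the cortical score in the model.

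The mice given amphetamine share no library with the saline mice and show whether the line difference recurs. Of the 191 loci called after saline, 187 (97.91%) had the same sign there, against 70.31% of loci not called. The exceptions were Tmem47, Srsf6, Lama4 and Ysk4, with values from -0.06 to 0.08 under amphetamine. Among all 17206 loci 78 (0.453%) were called between the lines under amphetamine, and 36 of the 191 were called with the same sign (19 higher, 17 lower). These are 18.85% of the saline calls and 46.15% of the amphetamine calls. When the saline and the amphetamine mice were fitted separately, 16 loci were called in both with the same sign, of 223 and 50 called. In the joint fit, differences were smaller under amphetamine for 171 of the 191, with a median absolute log2 of 0.38 against 0.67. The loci were selected on the saline values, which favours larger values in saline. A test of the difference between the 2 line effects called 0 loci with edgeR, while 510 of 17206 (2.96%) and 44 of the 191 had an unadjusted p under 0.05.

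Syce2, Coq7, Wdr11, Cetn4, Tmem44, Mrc2, Mfsd7b and S100b were among the named genes called in both sets of mice. Syce2 measured 3.87, 3, 3.19, 2.94 and 3.89 CPM in control and 1.23, 1.69, 1.46, 1.15 and 1.29 CPM in overactive amphetamine libraries (log2 -1.31, SE 0.16, edgeR adjusted p = 0.000392). Wdr11 had log2 differences of 0.64 and 0.67 after saline and amphetamine, Cetn4 0.99 and 0.94, Tmem44 0.94 and 0.93, Mrc2 1.26 and 1.23, and S100b -0.78 and -0.78. Each pair of values differs by less than either standard error. Itpr2, a calcium release channel chosen after its values were seen, had 0.35 in both.

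Other named genes had the same sign but were not called under amphetamine. Glo1 measured 205, 196, 162, 161 and 215 CPM in control and 318, 365, 216, 321 and 251 CPM in overactive amphetamine libraries (log2 0.65, SE 0.18, edgeR adjusted p = 0.122), with overactive libraries 3 and 5 lowest. The same 2 libraries were lowest of their line for Btbd9, at 86.3 and 88 CPM against 103 to 106 CPM, and for Gm10503, at 17.5 and 19.8 CPM against 37.9 to 40.9 CPM. Srp54c measured 10.2, 9.72, 9.71, 19.6 and 19.6 CPM in the overactive and 19.1 to 21 CPM in the control amphetamine libraries (log2 -0.56, SE 0.17, edgeR adjusted p = 0.164). Overactive libraries 4 and 5 thus stood at the level of the control line and the other 3 at the level seen after saline. Mansc1 went from a log2 of -0.65 after saline to -0.24 under amphetamine (unadjusted p of the difference 0.00906, with edgeR adjusted p of at least 0.9999 for all 191).

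**Figure D5:**
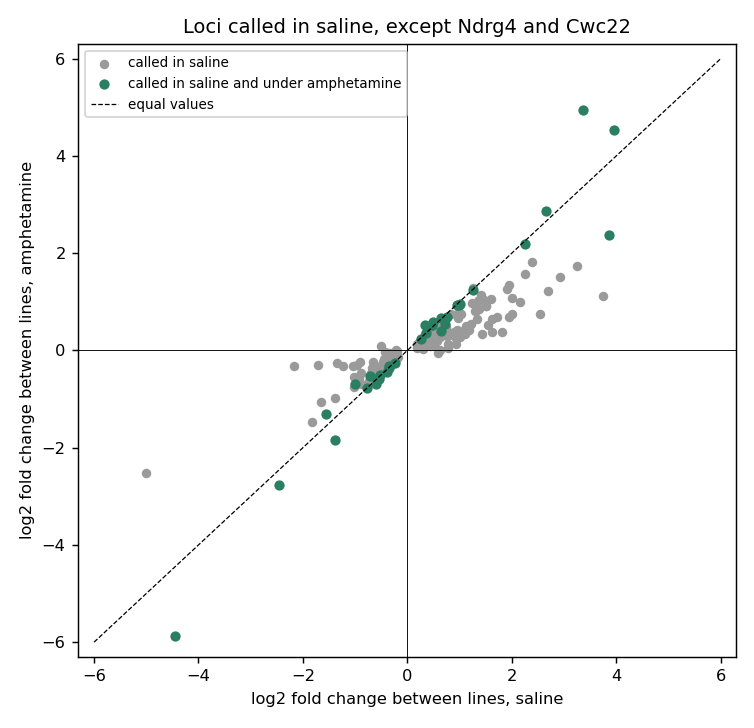
Points are the 189 loci called after saline other than Ndrg4 and Cwc22, with the log2 difference between the lines after saline on the horizontal axis and under amphetamine on the vertical axis. Green points were also called under amphetamine, and most points lie in the quadrants of equal sign and nearer to 0 on the vertical axis than the dashed line of equal values.

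The number of calls depended on single mice. The count was 67 to 218 when 1 saline library at a time was left out. It moved by over 1.5 times without control library 1 (124), 2 (115), 3 (101) or 5 (67), or overactive library 3 (100) or 4 (75), and 43 loci were called in all 10 such fits. Glo1, Gstp2, Park2, Coq7, Wdr11, Acy3, Cetn4, Tmem44, Syce2, Mansc1, Srp54c and Napb were among these 43. Of the genes just named, Acy3, Cetn4, Mansc1, Srp54c and Napb were called with neither the cortical nor the ependymal score in the model. Their edgeR adjusted p ran from 0.0696 to 0.23 with the cortical score and from 0.0505 to 0.184 with the ependymal score.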

How the data were processed

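RNA of whole striatum from 20 mice was measured, and the 10 saline libraries are the subject here. The authors deposited 1 table of expected counts per locus, not scaled between libraries, with gene symbols and locus spans. The submitters' processing notes name the builds mm10 and GRCm38. The aligner, counting tool and use of strand are not given in the sources used here. Of the values 93.9% were whole within 0.01, and all were rounded.

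Loci without a symbol (10576, 0.65% of counts) were left out, and 626 with several symbols (4.98%) were kept as 1 locus each. Positions of genes are GENCODE M21 spans on GRCm38, matched by symbol (15832 of 16596 tested loci with 1 symbol, 1352 through an older symbol), and locus spans are those of the table, counted from 1. In edgeR 4.0.16 (R 4.3.3) filterByExpr on the 4 groups chose the loci, TMM set the scaling, and all 20 libraries shared 1 quasi-likelihood fit with group means. Tests were two-sided, with adjustment over 17206 loci. Library totals ran from 31393788 to 53773028 counts, with a median SE of 0.11 for a log2 difference. Tested on simulated data for this comparison (17072 loci), the fit recovered 34% of changes set at 1.25-fold and 66% of those at 1.5-fold. It recovered 78% of those at 2-fold and every one at 4-fold, and 9 of its 148 calls were false. The simulated loci were drawn independently, without differences in tissue that many loci share.

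Among called loci with 1 annotated symbol and at least 1 CPM, named genes were the 14 of smallest p and the 5 of largest fold in each direction. Up to 3 called members of each of 38 gene lists, the called members of 5 Mb windows with 4 or more calls, and 12 set genes (Drd1a, Drd2, Pdyn, Penk, Tac1, Th, Slc6a3, Slc18a2, Fos, Arc, Slc17a7, Glo1) were added. The comparison, lists and rule were chosen with earlier results of these data known. A listed locus can occur more than once where a symbol has several loci.

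Alternatives used RLE and upper quartile scaling, other filters, DESeq2 1.42.0, limma-voom (limma 3.58.1), saline libraries only, a replicate block, marker scores as covariates (mean log2 CPM with a prior count of 2), 1 surrogate variable (sva 3.50.0) and leaving out each library. The thalamic and ependymal covariates, the fit without 2 libraries high in thalamic markers, the fit without loci at 0 and the summing of copies were chosen after seeing the data. Sequences were handled and figures drawn in Python 3.11.15 with biopython 1.88 and matplotlib 3.10.9.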

Additional observations from a re-analysis of the deposited data

Results flagged for a closer look

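In 5 of 104 groups of named genes tested, 1 library lay far from the other 4 of its group relative to their range. The rule is set to flag 1 in 20 of independent groups. These genes share libraries and many were named for their small p, so the number cannot be weighed against that rate. Gpr55 stood at 5.65 CPM in control saline library 4 against 1.28 to 2.48 CPM in the other 4, still below every overactive library. Mansc1 stood at 14.2 CPM in control saline library 5 against 10.8 to 11.7 CPM. S100b stood at 111 CPM in control saline library 4, where the others measured 188 to 216 CPM. In overactive saline library 3, Fos stood at 32.5 CPM against 8.27 to 13.5 CPM and Arc at 286 CPM against 80.4 to 111 CPM.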

How the results depend on the processing

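The main model called 191 loci (110 higher, 81 lower). DESeq2 called 764 (414 and 350) and limma-voom 297 (177 higher). A cortical marker score as covariate left 19 calls (14 higher, 5 lower), an ependymal score 23 (9 and 14), and leaving out the 2 saline libraries highest in thalamic markers 66 (33 and 33). Left out 1 at a time, libraries gave 67 to 218 calls, 38 to 128 higher and 29 to 97 lower. Within 1.5 times lay RLE (198) and upper quartile (173) scaling, a stricter filter of 1 CPM (179) and none (156), saline libraries only (223), 1 surrogate variable (231), a thalamic score (147) and omission of loci at 0 (194). With at most 10 counts in place of 3 as the limit, 5 loci in place of 2 were off in 1 line. Separate fits of the saline and amphetamine mice gave 16 loci called in both in place of 36. Acaa1b summed with Acaa1a had -0.84, a sign set by the far higher level of Acaa1a.

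The replicate number as a block gave 102 calls (52 higher, 50 lower) in the saline libraries alone and 96 (51 and 45) within treatment over all libraries. Same-numbered libraries had correlations of -0.10, 0.04, 0.03, 0.11 and 0.19, within the range of differently numbered pairs (-0.20 to 0.30). These values cannot settle whether the number marks a shared litter or day, and the labels do not say. Sums with copies aside, no named gene that was called changed sign under the alternatives run. Why counts moved was not tested, beyond the fewer libraries in fits that left some out. Depth limits low loci most: Gstp2 rests on 3 to 7 counts in control libraries.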
